A study of Mus musculus with 18 samples.

Results

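Newly made RNA was compared between mouse embryonic stem cells given 4-hydroxytamoxifen (4OHT) for 2 h to switch on ERK signalling and the same cells before 4OHT, at 0 h, with Med24 present at both times. The comparison was defined by the group labels and used 6 libraries, 3 at 2 h and 3 at 0 h, of the 18 in the study. It covered 14128 genes with enough counts to be tested, of 25897 listed. The cells were of the E14tg2a line on a 129SV background. All 6 libraries came from Med24 knockout cells that were rescued with TET-Med24, a TET-regulated cDNA that encodes FLAG-Med24, and were kept on 500 nM doxycycline for several passages (labelled WT, called rescued here). All also carried the cRAF-ErT2-T2A-RTTA cassette, whose cRAF-ErT2 kinase is activated by 4OHT. The cells grew in serum with LIF and 2 µM Chir99021, a GSK3 inhibitor, and spent their last 24 h in serum and LIF with 250 nM PD173074, an FGF receptor inhibitor. The 2 h group then received 250 nM 4OHT and the 0 h group was left untreated (in DMSO). RNA made in the last 15 min was labelled with 5 mM ethynyl uridine and captured. Each group held clones A, B and C. No group was given 4OHT without the cassette, so the effect of the kinase and of 4OHT itself cannot be told apart. The rescued 8 h group and the knockout groups, which received no doxycycline, are used at the end for reference.

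ERK is the last kinase of a chain in which RAS activates RAF, RAF activates MEK and MEK activates ERK. Active ERK phosphorylates transcription factors of the ETS family that sit with SRF at serum response elements, and immediate early genes are then transcribed without new protein synthesis. Among the first products are phosphatases and Sprouty proteins that damp the pathway. In embryonic stem cells, FGF4 acting through ERK moves cells away from the naive state, and blocking the pathway holds them in it.

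The 2 h libraries held 8171389, 8099133 and 9113726 counts in clones A, B and C, and the 0 h libraries held 7143558, 6725228 and 7540294. A count of 3, which a count of 0 still allows, corresponds to between 0.333 and 0.418 CPM in these libraries, where CPM is a gene's count relative to the TMM-scaled size of its library. Within a group the Pearson correlation of log2 CPM across genes was 0.990 to 0.992. The first principal component of the 6 libraries accounted for 86.7% of the variance and separated the 2 h from the 0 h libraries. The embryonic stem cell marker Pou5f1 stood at 215, 212 and 227 CPM at 2 h and at 169, 173 and 180 CPM at 0 h, and Zfp42 averaged 691 and 647 CPM. Of 15 embryonic stem cell markers 5 were higher at 2 h and 7 lower, and the list summed to between 4722 and 4808 CPM at 2 h and between 4455 and 4527 CPM at 0 h. Of 12 fibroblast markers 8 were below the count filter, among them Col1a2, Col3a1 and Dcn, and the list summed to between 188 and 217 CPM at 2 h and to between 25.9 and 34.3 CPM at 0 h, most of it Vim. Of 12 neural markers 6 were below the filter, and the list summed to between 73.2 and 83.1 CPM at 2 h and 61.6 and 66.3 CPM at 0 h. Of 12 blood and endothelial markers 5 were below the filter, with sums of 46.5 to 52.3 CPM at 2 h and 62.4 to 68.9 CPM at 0 h. Of 14 marker genes of the 2-cell-like state 11 were listed, and 9 of these were below the filter. The 2 that were measured, Zscan4d and Gm20767, summed to at most 0.503 CPM in any of the 6 libraries. A gene with fewer new reads in bulk RNA cannot be told apart from fewer cells that transcribe it.

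Med24, the Mediator subunit that is knocked out and replaced here, was read at 1520, 1775 and 1610 CPM at 2 h and at 528, 602 and 515 CPM at 0 h. The groups did not overlap, and the log2 fold change was 1.58 ± 0.067 (SE, adjusted p = 3.86e-19, edgeR quasi-likelihood test). Med24 lies on chromosome 11 (GRCm38 chr11:98704591-98729435, minus strand), and its count joins reads from the rescue cDNA with any from the knocked-out gene. In knockout cells, which lack doxycycline, Med24 averaged 46.5 CPM at 2 h and 38.9 CPM at 0 h.

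The first question was how far transcription changed within 2 h. Of the genes tested, 66.2% were called at an adjusted p of 0.05, with 4574 higher (32.4%) and 4780 lower (33.8%). Most changes were small. At 2-fold or more 1168 genes were higher and 1638 lower, at 4-fold or more 436 and 348, at 8-fold or more 178 and 69, and at 16-fold or more 81 and 19. In 4375 of the genes called higher and 4543 of those called lower the groups of 3 libraries did not overlap. Over all genes tested, non-overlapping groups were found for 33.5% in the higher and 35.3% in the lower direction. The balance of calls depends on the scaling: with library size alone in place of TMM the median of all genes moved by -0.16 on the log2 scale, and 31.9% of calls rather than 48.9% were higher. No spike-in is named in the labels, so every change is relative to the other genes of the library. Among 561 protein-coding genes under 1 CPM at 0 h, which could not pass the count filter through the 0 h libraries alone, 257 were called higher, so that their number is partly set by the filter. Of the genes named below, Mapk3, Klf9, Socs3, Pou5f1, Ctgf and Spry1 were called higher with TMM but not with library size alone.

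**Figure D1:**
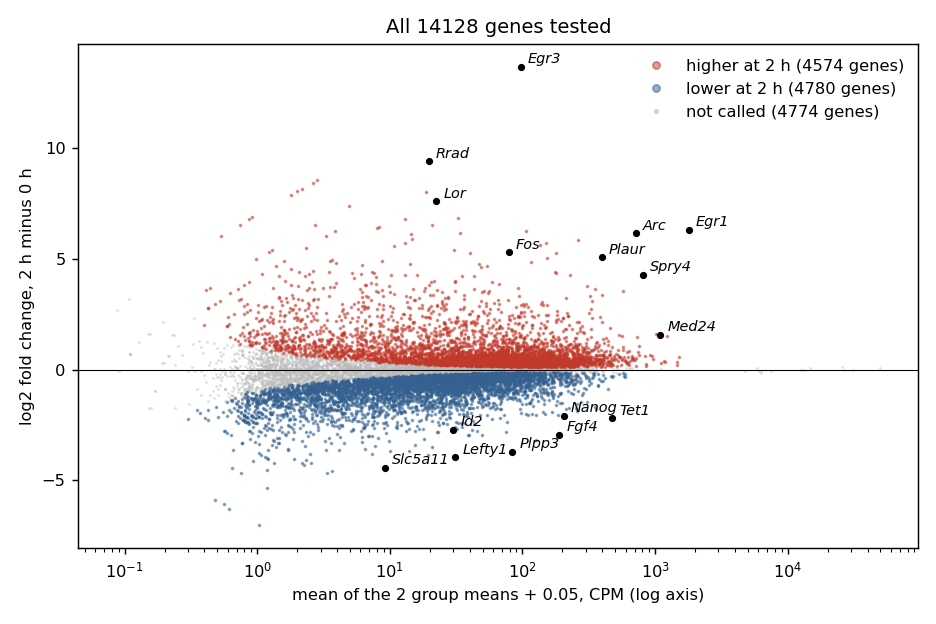
Log2 fold change of 2 h over 0 h (vertical axis) against mean level in CPM (horizontal, log axis) for every gene tested, with called genes in red (4574 higher) and blue (4780 lower) and selected genes named. Egr3, with no counts at 0 h, stands highest at 13.68, a fitted value that is no bound, and the largest labelled fall is that of Slc5a11 at -4.42.

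Immediate early transcription factor genes, which a signal switches on first, were higher at 2 h in 22 of 24 measured members (32.4% of all genes tested) and lower in 1. Here and for the other lists, members are counted over those that passed the count filter; 3 of 27 in this list, 1 of 26 ERK feedback genes, 3 of 23 ETS genes and 11 of 36 epidermal genes did not, and all 29 naive pluripotency genes did. Egr3, Egr2 and Fosb, which averaged under 1 CPM at 0 h, could not pass that filter through the 0 h libraries alone. The count called higher is therefore partly set by the filter. The same holds for members under 1 CPM at 0 h in the lists below, among them Rrad and Dusp2. The immediate early transcription factor genes had a median log2 fold change of 2.25, against -0.02 over all genes tested. For every list below, the shares of all genes tested to set beside its counts are 32.4% higher and 33.8% lower with TMM. A count near these shares says nothing particular about the list. The shares also differed with level. Of protein-coding genes at 100 CPM or more at 0 h 52.7% were higher and 26.4% lower. Between 1 and 5 CPM the shares were 18.1% and 30.8%. The lists were not matched for level, and the part of level in their counts was not tested. The EGR zinc finger genes Egr3 and Egr1 gave the largest rises of the list. Egr3 (chr14:70077203-70082614, plus strand) had 182, 199 and 202 CPM at 2 h and no counts in any 0 h library, at least 1523-fold higher against 3 counts over the group. Egr1 (chr18:34859823-34864984, plus strand) stood at 3265, 3825 and 3485 CPM at 2 h and at 45.1, 47.2 and 41.5 CPM at 0 h. Its log2 fold change was 6.31 ± 0.12 (adjusted p = 2.77e-28), and no gene that was called gained more CPM. Egr2 (chr10:67535475-67542188) was lower in level, at 23.3, 30.2 and 27.9 CPM at 2 h and 0.751, 1.39 and 0.841 CPM at 0 h, and rose by 4.77 ± 0.21 on the log2 scale. In each of these genes every 2 h library stood above every 0 h library.

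The FOS and JUN genes encode the subunits of the AP-1 transcription factor, and they rose by unequal amounts. Fos (chr12:85473890-85477273) had 144, 163 and 151 CPM at 2 h and 4.00, 4.32 and 3.36 CPM at 0 h, a log2 fold change of 5.30 ± 0.12. Fosl2 had 264, 262 and 272 CPM at 2 h and 4.38, 5.15 and 6.24 CPM at 0 h, a log2 fold change of 5.65 ± 0.11. Fosb rose by 4.36 and Fosl1 by 2.87 on the log2 scale. Among the partners, Junb rose by 3.22 ± 0.070, Jun by 2.12 ± 0.089 and Jund by 0.69 ± 0.11, so that the JUN genes spread over more than 2 log2 units. Junb stood at 363, 405 and 381 CPM at 2 h and at 40.0, 46.1 and 37.5 CPM at 0 h, and its reads overlap those of Prdx2 on the other strand, which fell by 0.37. The small MAF genes, whose products pair with other bZIP factors, rose by 3.45 (Maff) and 1.57 (Mafk), and Atf3 rose by 1.78.

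Further transcription factor genes of the list rose, apart from a pair of them. Klf10, a zinc finger factor gene, stood at 540, 592 and 572 CPM at 2 h and at 83.7, 92.4 and 83.0 CPM at 0 h (log2 fold change 2.72 ± 0.075). Bhlhe40, a repressor linked to the circadian clock, rose by 3.14, Ier5 by 2.38, Ier5l by 1.89, Myc by 1.86, Ier2 by 1.85, Nr4a1 by 1.21, Klf6 by 0.98 and Srf by 0.52 on the log2 scale. Nfil3 was not called, at a mean of 3.74 CPM in both groups. Nr4a2, an orphan nuclear receptor gene and close relative of Nr4a1, went the other way: it had 9.68, 9.38 and 8.43 CPM at 2 h and 21.8, 18.4 and 17.3 CPM at 0 h, with no overlap, and fell by 1.07 ± 0.12 on the log2 scale.

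**Figure D2:**
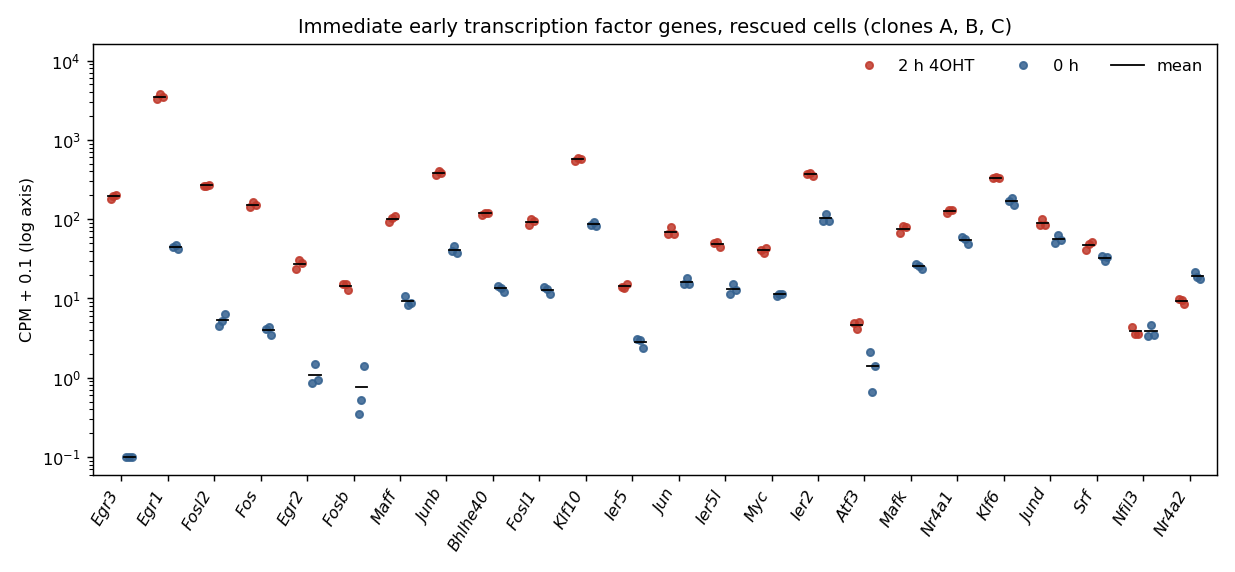
Level of each measured immediate early transcription factor gene in the 3 clones at 2 h of 4OHT (red, left of each pair) and at 0 h (blue, right), in CPM plus 0.1 on a log axis, with black bars at the group means. The red points lie above the blue ones from Egr3 to Srf, overlap them for Nfil3 and lie below them for Nr4a2.

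The CArG box is the sequence that SRF binds. The RefSeq promoter table (GRCm38.p6; 250 bases before to 50 after each start) held 10790 of the genes tested, and 171 of them (1.58%) had a CArG box on either strand. Among the immediate early transcription factor genes it was found in Egr2 and Srf (2 of 17 matched), among the other immediate early genes in Zfp36 (1 of 17) and among the ERK feedback genes in Dusp5 (1 of 22). TGACGT, the core of the site for CREB and ATF factors, was present in 4 of 17 immediate early transcription factor genes and 6 of 17 other immediate early genes, against 12.4% of all genes matched. The last 150 bases before the start are shown 5′ to 3′ along the gene's strand for the 4 genes with a CArG box and for Fos, since they belong to genes whose rises are given here. Capitals mark, on either strand, a CArG box, the letters TGACGT, the letters TATAAA (as in a TATA box) and the core of an ETS site, whose letters are CCGGAAG.
Egr2 (chr10:67537416-67537565, plus strand, CArG box 72 to 63 bases before the start): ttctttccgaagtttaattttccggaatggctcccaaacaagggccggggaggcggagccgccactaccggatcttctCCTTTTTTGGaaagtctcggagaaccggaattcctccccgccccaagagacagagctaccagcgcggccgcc
Srf (chr17:46556163-46556312, minus strand, CArG boxes 82 to 73 and 62 to 53 bases before the start): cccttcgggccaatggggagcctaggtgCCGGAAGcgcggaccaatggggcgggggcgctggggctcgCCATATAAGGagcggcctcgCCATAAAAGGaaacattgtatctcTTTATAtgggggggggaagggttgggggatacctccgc
Zfp36 (chr7:28379229-28379378, minus strand, CArG box 58 to 49 bases before the start): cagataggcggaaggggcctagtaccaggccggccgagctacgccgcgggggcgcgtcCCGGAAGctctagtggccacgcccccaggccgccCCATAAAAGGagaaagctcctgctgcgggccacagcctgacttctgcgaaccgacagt
Dusp5 (chr19:53528995-53529144, plus strand, CArG boxes 82 to 73 and 72 to 63 bases before the start): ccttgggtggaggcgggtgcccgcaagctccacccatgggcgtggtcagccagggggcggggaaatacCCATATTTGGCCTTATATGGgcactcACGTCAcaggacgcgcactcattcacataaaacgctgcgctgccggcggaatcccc
Fos (chr12:85473740-85473889, plus strand, TGACGT 66 to 61 bases before the start): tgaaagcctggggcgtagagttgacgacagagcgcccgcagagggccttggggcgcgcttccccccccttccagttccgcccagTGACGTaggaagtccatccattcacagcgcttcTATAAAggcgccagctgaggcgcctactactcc
A motif match is a description of these letters and not of binding. Sites more than 250 bases before a start were not searched, and genes missing from the promoter table were not searched at all. Fos and other genes without a match are therefore not shown to lack a CArG box.

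Other immediate early genes, which encode signalling proteins, corepressors and RNA-binding proteins, were higher in 20 of 24 members and lower in 4, with a median log2 fold change of 0.83. With library size alone 14 were higher and 4 lower. Arc, known from neurons as an activity-induced synaptic gene, stood at 1257, 1559 and 1399 CPM at 2 h and at 17.9, 21.9 and 19.1 CPM at 0 h (log2 fold change 6.17 ± 0.10, adjusted p = 2.52e-29). Nab1 and Nab2 encode corepressors that bind EGR proteins. Nab1 had 294, 301 and 300 CPM at 2 h and 8.89, 8.91 and 9.61 CPM at 0 h, a rise of 5.03 ± 0.079, and Nab2 rose by 5.26 ± 0.10 on the log2 scale. Nab2 overlaps Stat6 and Nemp1 on the opposite strand, which were higher by 2.15 and 1.43, and the counting is not stated to use strand. Rrad, a RAS-related GTPase gene, had 971 counts over the 2 h libraries and 1 count over the 0 h libraries, a ratio of 914 (95% counting interval 164 to 36150). Genes for proteins that destabilise mRNA were higher too, Zfp36 by 2.24 ± 0.10, Zfp36l1 by 1.38 and Zfp36l2 by 1.38. Ptgs2, which encodes the inducible cyclooxygenase, rose by 2.48 and Trib1, a pseudokinase gene, by 2.02. The 4 members that fell were Gadd45a (-0.66), Gadd45b (-0.92), Gadd45g (-0.75) and Gdf15 (-2.21 on the log2 scale, at 0.660 CPM at 2 h and 3.04 CPM at 0 h). The first 3 of these encode growth arrest and DNA damage proteins, and Gdf15 encodes a stress cytokine.

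Genes of proteins that restrain the ERK pathway were higher in 16 of 25 measured members and lower in 5, with a median of 0.81. The dual-specificity phosphatases DUSP2, DUSP4 and DUSP5 act on ERK in the nucleus and DUSP6 and DUSP7 act on it in the cytoplasm. Dusp5 (chr19:53529109-53542431) stood at 336, 338 and 346 CPM at 2 h and at 18.4, 16.1 and 14.6 CPM at 0 h, a log2 fold change of 4.37 ± 0.078. Dusp2 had 920 counts over the 2 h libraries and 3 over the 0 h libraries, a ratio of 289 (95% counting interval 98.5 to 1403). Dusp4 rose by 3.32, Dusp1 by 2.82 and Dusp6 by 2.10 on the log2 scale, whereas Dusp7 fell by 0.48. Of the phosphatases that act mainly on the JNK and p38 kinases, Dusp14 rose by 3.56 ± 0.10 and Dusp16 by 1.67 ± 0.052, and Dusp8 (-0.06) and Dusp10 (0.13) were not called.

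The Sprouty and SPRED proteins act between the receptor and RAF. Spry4 (chr18:38586247-38601415) stood at 1518, 1561 and 1532 CPM at 2 h and at 87.9, 73.9 and 74.2 CPM at 0 h (log2 fold change 4.29 ± 0.080, adjusted p = 4.42e-28), the second largest gain in CPM among called genes after Egr1. Spred3 rose by 2.36, Spred1 by 1.69 and Spry2 by 1.36 on the log2 scale, and Spred2 (-0.03) was not called. Spry1 was higher by 0.33, and this call was lost without clone B at 2 h (0.26), clone C at 2 h (0.25) or clone C at 0 h (0.20), and with the 6 libraries alone (0.32). Phlda1 had 208, 206 and 211 CPM at 2 h and 3.63, 1.53 and 2.76 CPM at 0 h, a log2 fold change of 6.27 ± 0.10, and its relative Phlda3 fell by 0.99. Nf1, the gene of the RAS-inactivating protein neurofibromin, rose by 0.50. Lrig1, an inhibitor of EGF receptors, had 51.0, 57.8 and 49.1 CPM at 2 h and 127, 122 and 121 CPM at 0 h and fell by 1.23 ± 0.068.

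The genes of the cascade itself changed little. Of 31 measured, 18 were higher (58.1%) and 6 lower (19.4%), against 32.4% and 33.8% of all genes tested. The median was 0.24, and with library size alone 9 were higher and 6 lower. Rps6ka3, which encodes an ERK-activated ribosomal S6 kinase, had 163, 152 and 153 CPM at 2 h and 41.9, 41.8 and 43.9 CPM at 0 h, a rise of 1.87 ± 0.066. Braf rose by 1.08, Mknk2, the gene of an ERK-activated kinase of eIF4E, by 1.00 and Nras by 0.68, and Mapk3, the gene of ERK1, by 0.37. Mras, whose protein joins SHOC2 in activating RAF, had 9.30, 9.01 and 7.66 CPM at 2 h and 53.3, 56.5 and 56.3 CPM at 0 h and fell by 2.68 ± 0.094. Frs3, an FGF receptor adaptor gene, fell by 1.57 on the log2 scale.

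Among ETS transcription factor genes 10 of 20 (50%) were higher and 5 (25%) lower, against 32.4% and 33.8% of all genes tested. The PEA3 group, known FGF and ERK targets, rose in all its members: Etv4 by 3.10 ± 0.092, Etv1 by 1.32 and Etv5 by 0.82. Erf, a repressor that ERK drives out of the nucleus, rose by 0.94, and the SRF partner Elk4 by 0.74. Elk3 (0.01) and Elk1 (-0.22) were not called. The epithelial factor Elf3 had 10.3, 11 and 9.65 CPM at 2 h and 41.7, 52.3 and 42.7 CPM at 0 h and fell by 2.14 ± 0.14.

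Of the genes of EGF receptor ligands 3 were called higher, and Fgf4 fell. In the EGF and FGF list 11 of 23 members were higher and 4 lower. Hbegf (chr18:36504927-36515805), an EGF receptor ligand, had 420, 437 and 437 CPM at 2 h and 24.3, 22.6 and 19.7 CPM at 0 h, a log2 fold change of 4.28 ± 0.076. The related ligands Areg (1.40 CPM at 2 h and 0.0817 CPM at 0 h) and Ereg (0.974 CPM at 2 h and no counts at 0 h) were called higher at levels close to that of a few counts. The ligand genes Egf (6.66 CPM at 2 h and 8.01 CPM at 0 h) and Tgfa (15.4 CPM at 2 h and 14.2 CPM at 0 h) were not called, and Btc and Epgn were below the count filter. The receptor genes Egfr and Fgfr1 fell by 0.74 and 0.68 on the log2 scale, while the other receptor genes of the list were called higher or were not called. Fgf4 (chr7:144847367-144865243), the FGF through which embryonic stem cells stimulate themselves, had 41.9, 43.0 and 45.1 CPM at 2 h and 313, 369 and 319 CPM at 0 h, and fell by 2.94 ± 0.066 (adjusted p = 4.25e-26). Fgf10 had 0.970 CPM at 2 h and 13.7 CPM at 0 h and fell by 3.81. Other secreted factors were split, 12 of 29 higher and 9 lower. Tgfb1 rose by 2.97, Bmp4 by 2.31, Wnt7b by 1.59 and Pdgfa by 1.28, and Lefty1, an inhibitor of Nodal, fell by 3.97, Lefty2 by 2.80 and Gdf3 by 1.26 on the log2 scale. Lefty1 and Lefty2 are close copies, so reads may have been split between them.

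Outside the signalling lists, the largest rises included genes of the outer skin layer. In the epidermal list 14 of 25 members (56%) were higher and 5 (20%) lower, against 32.4% and 33.8% of all genes tested (median 0.83). Lor (chr3:92080271-92083142, minus strand), which encodes loricrin, a main protein of the cornified envelope, had 42.7, 47.5 and 42.2 CPM at 2 h and 0.125, 0.418 and 0.120 CPM at 0 h, a log2 fold change of 7.60 ± 0.24. Krtdap, a keratinocyte differentiation gene, had 14.2, 17.8 and 16.6 CPM at 2 h and 0, 0.278 and 0.240 CPM at 0 h, a log2 fold change of 6.45 ± 0.40. Sprr1a, a cornified envelope gene, had 86 counts over the 2 h libraries and none at 0 h, at least 27.0-fold higher against 3 counts over the group. The desmosome genes Dsp and Pkp3 rose by 2.48 and 2.67, the simple keratins Krt8 and Krt18 by 2.91 and 2.77 and Sfn, the gene of 14-3-3 sigma, by 2.83. Grhl3, a transcription factor gene of the skin barrier, rose by 1.03. Tgm1, which encodes the transglutaminase that links the cornified envelope, fell by 1.60 ± 0.13. Dsg2, Klf4, Krt17 and Dsc2 were also lower, and Krt7, Krt19, Flg, Evpl, Grhl1 and Cldn7 were not called. The members below the count filter included Krt5, Krt14, Krt6a and Ivl. Lor, Krtdap and Sprr1a, with few or no counts at 0 h, could not pass that filter through the 0 h libraries alone.

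Of 178 genes that rose 8-fold or more 114 were matched in the promoter table. The letters TGANTCA, a site of AP-1, were present in 22 of these 114 (19.3%), against 6.44% of all genes matched, with no test of the difference. The TATAAA letters were also present in 19.3%, against 8.80%, and the ETS core CCGGAAG in 6.14%, against 18.7%, while 3 of 114 had a CArG box. Of the genes that fell 8-fold or more 47 were matched, and of these 6.38% held TGANTCA, 17% TATAAA and 2.13% CCGGAAG. None of the 17 matched immediate early transcription factor genes and none of the 22 matched feedback genes held TGANTCA in this window. The stretches before the start of Lor, Krtdap and Plaur, which encodes the urokinase receptor, are shown as 3 of the genes in that group with TGANTCA. Capitals mark TGANTCA and TATAAA on either strand.
Lor (chr3:92083143-92083292, minus strand, TGANTCA 48 to 42 bases before the start): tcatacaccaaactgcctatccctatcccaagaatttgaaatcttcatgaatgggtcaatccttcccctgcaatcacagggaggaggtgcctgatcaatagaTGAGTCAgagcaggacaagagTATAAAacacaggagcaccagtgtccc
Krtdap (chr7:30787755-30787904, plus strand, TGANTCA 81 to 75 bases before the start): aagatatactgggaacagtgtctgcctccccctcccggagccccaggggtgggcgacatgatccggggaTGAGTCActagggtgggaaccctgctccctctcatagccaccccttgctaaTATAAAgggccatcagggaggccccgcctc
Plaur (chr7:24462333-24462482, plus strand, TGANTCA 69 to 63 bases before the start): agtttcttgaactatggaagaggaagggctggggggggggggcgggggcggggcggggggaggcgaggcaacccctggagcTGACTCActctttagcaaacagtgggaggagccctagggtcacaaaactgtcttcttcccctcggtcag

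Among other genes with large rises, Plaur had 742, 771 and 795 CPM at 2 h and 26.0, 19.2 and 22.8 CPM at 0 h (log2 fold change 5.08 ± 0.087), and no library of one group came near the other. Pla2g7, the gene of platelet-activating factor acetylhydrolase, had 309, 284 and 300 CPM at 2 h and 4.88, 5.99 and 5.88 CPM at 0 h. It was chosen after its values were seen, since it had the smallest adjusted p of all genes (1.51e-30), and its log2 fold change was 5.73 ± 0.082. Iqsec3, an ARF exchange factor gene, rose by 6.83, the receptor gene Gpr142 by 6.82, the transcription factor gene Sox8 by 6.54, Gsg1 by 6.41, the collagen gene Col26a1 by 6.18, Btbd17 by 6.15 and the calcium-binding protein gene S100a3 by 5.89 on the log2 scale. Gpr142 and Btbd17 are neighbours on chromosome 11. The largest gains in CPM among called genes, after Egr1, Spry4 and Arc, were in Trim71, Med24, Brd2, Plec, Plaur, Peg10 and Midn. Plec, the gene of the linker protein plectin, had 1064, 1067 and 1064 CPM at 2 h and 93.6, 85.3 and 89.9 CPM at 0 h. Brd2, a BET bromodomain gene, averaged 1523 CPM at 2 h and 504 CPM at 0 h, and Midn, the gene of midnolin, 727 CPM at 2 h and 70.4 CPM at 0 h.

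In the naive pluripotency list 19 of 29 measured members were lower (33.8% of all genes tested) and 6 higher (32.4%), with a median log2 fold change of -0.67. The list also holds general pluripotency genes that are not particular to the naive state, such as Pou5f1, Sox2 and Sall4. Nanog (chr6:122707489-122714633) had 67.9, 87.0 and 79.1 CPM at 2 h and 327, 337 and 326 CPM at 0 h, and fell by 2.08 ± 0.079 (adjusted p = 2.18e-20). Esrrb (chr12:86361117-86521628), an orphan nuclear receptor gene, had 150, 178 and 161 CPM at 2 h and 568, 562 and 541 CPM at 0 h and fell by 1.77 ± 0.061. Prdm14 averaged 3.31 CPM at 2 h and 23.0 CPM at 0 h and fell by 2.79 ± 0.15. Among Kruppel-like factors, Klf2 had 22.6, 26.9 and 23.7 CPM at 2 h and 110, 148 and 124 CPM at 0 h and fell by 2.38 ± 0.11, Klf4 fell by 1.09 ± 0.083, and Klf5, with 409, 439 and 413 CPM at 2 h and 180, 180 and 185 CPM at 0 h, rose by 1.21 ± 0.052. None of the named groups overlapped. Fbxo15 fell by 1.89, Tcl1 by 1.53, Gbx2 by 1.29, Tfcp2l1 by 1.18, Tdh by 1.18, Sall4 by 1.16, Tbx3 by 1.07, Spp1 by 1.03, Nr0b1 by 0.67, Jam2 by 0.64, Nr5a2 by 0.55 and Sox2 by 0.47 on the log2 scale. Dppa3 was lower by 0.58, but this call was lost with RLE scaling (-0.57), with DESeq2 (-0.58) and without any clone at 2 h or clone B at 0 h (-0.66 to -0.38). Dppa4 rose by 0.79, Dppa2 by 0.77, Socs3 by 0.38, Pou5f1 by 0.32 and Klf9 by 0.29. Zfp42, the gene of the marker REX1, was not called (0.09 ± 0.061, adjusted p = 0.177), nor were Stat3, Pecam1 (-0.14) and Dppa5a (-0.20). Pecam1 was called lower without clone B at 2 h (-0.18), with the 6 libraries alone (-0.15) and with library size alone (-0.30), and Dppa5a with library size alone (-0.36) and without a filter (-0.19).

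**Figure D3:**
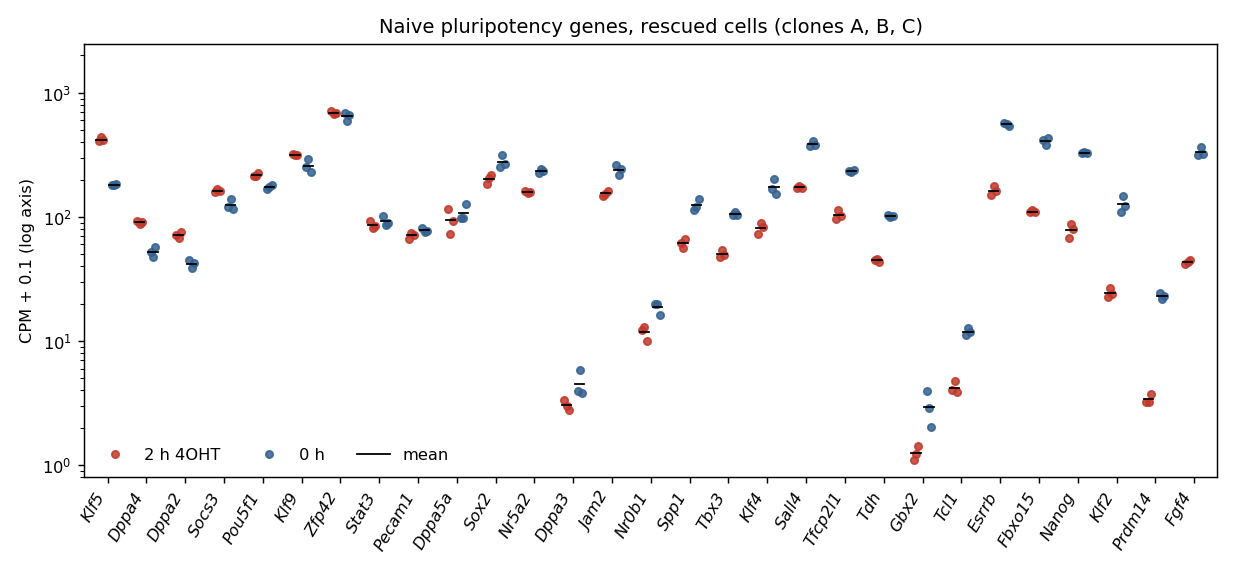
Level of each measured member of the naive pluripotency list in the 3 clones at 2 h of 4OHT (red, left of each pair) and at 0 h (blue, right), in CPM plus 0.1 on a log axis, with black bars at the group means. Genes run from Klf5, which was higher at 2 h, to Fgf4, which fell by 2.94 on the log2 scale, with Zfp42 between them at about the same level in both groups.

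LIF acts through its receptor, JAK1 and STAT3 to keep embryonic stem cells naive. Lifr had 98.6, 101 and 91.7 CPM at 2 h and 208, 208 and 212 CPM at 0 h and fell by 1.11 ± 0.052. Jak1 rose by 1.58 and Jak2 by 2.15. Of the STAT3 target genes in the list Junb and Pim1 rose by 3.22 and 1.97, and Pim3 fell by 0.97. In all, 6 of 17 members were higher and 5 lower, near the background shares.

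Genes of the states that follow the naive one did not move together. Of formative and primed epiblast genes 9 of 21 were higher and 10 lower. Pou3f1, the gene of OCT6, had 14.7, 17.3 and 16.5 CPM at 2 h and 1.50, 1.11 and 1.32 CPM at 0 h and rose by 3.60 ± 0.19, and Lef1 rose by 1.94. Otx2 had 6.41, 5.51 and 5.66 CPM at 2 h and 16, 17.7 and 18 CPM at 0 h and fell by 1.56 ± 0.13. Foxp1 fell by 1.21 and Nes, the gene of nestin, rose by 1.37. In the mesoderm and gastrulation list 10 of 19 measured members were higher and 3 lower, and 9 of its 28 members were below the count filter. Of those called higher, Fgf8, Msx1, Cdx2 and Hand1 stood under 1 CPM at 0 h. They could not pass the filter through the 0 h libraries alone. The count of this list, and that of the trophectoderm list, which shares Cdx2 and Hand1, is therefore partly set by the filter. Twist1, a regulator of mesenchymal cells, rose by 4.89 ± 0.25 to 16.9 CPM, and Fgf8 (3.69 CPM at 2 h and 0.252 CPM at 0 h) and Msx1 (4.27 CPM at 2 h and 0.726 CPM at 0 h) were called higher at low levels. In the trophectoderm list 9 of 19 were higher and 5 lower. Tead4, whose product switches on trophectoderm genes, had 315, 300 and 313 CPM at 2 h and 58.2, 52.9 and 56.4 CPM at 0 h and rose by 2.47 ± 0.068. Gata3, a trophectoderm factor gene, was not called (27.4 CPM at 2 h and 26.4 CPM at 0 h), and Tfap2c fell by 1.46. Cdx2 (1.60 CPM at 2 h and 0.593 CPM at 0 h), Eomes (5.56 CPM at 2 h and 3.02 CPM at 0 h) and Hand1 (1.29 CPM at 2 h and 0.208 CPM at 0 h), other factor genes of the list, were called higher at low levels. Of primitive endoderm genes 6 of 17 were higher and 5 lower, near the background shares of 32.4% and 33.8%. Sparc rose by 1.93 and Lamb1 by 1.15, and Dab2 and Lama1 fell by 2.49 and 1.10. The defining factors Gata4 (4.76 CPM at 2 h and 4.36 CPM at 0 h) and Gata6 (2.36 CPM at 2 h and 3.23 CPM at 0 h) were not called. Col1a1 and Vim, from the fibroblast list, rose by 3.74 and 2.81, and Pdgfrb fell by 1.50.

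In the list of BMP, Nodal and TGF-beta targets 11 of 24 were lower and 7 higher. Id2, a target of BMP that blocks helix-loop-helix factors, had 7.79, 8.63 and 7.21 CPM at 2 h and 48.3, 56.0 and 52.6 CPM at 0 h and fell by 2.73 ± 0.11, and Id1 rose by 0.69. Smad3, a transducer of TGF-beta signals, had 11.7, 10.3 and 9.32 CPM at 2 h and 52.6, 58.6 and 53.1 CPM at 0 h and fell by 2.39 ± 0.099. Smad6, an inhibitor of BMP signalling, fell by 1.56. Skil, a known TGF-beta target, rose by 1.69. Among Wnt genes, Tcf7, Tcf7l2 and Lef1, which encode LEF/TCF factors, rose by 2.45, 1.75 and 1.94, and Tcf7l1, the repressor of the family, fell by 0.82. Axin2, a general Wnt target, was not called (14.3 CPM at 2 h and 14.2 CPM at 0 h). Of Notch genes 4 of 16 were higher (25%) and 5 lower (31.25%), and of retinoic acid genes 3 and 4 of 16 (18.75% and 25%). Over all genes tested the shares were 32.4% and 33.8%.

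In the list of actin cytoskeleton genes, many of them SRF targets, 18 of 28 (64.3%) were higher and 7 (25%) lower. All genes tested gave 32.4% and 33.8%, and the list median was 0.54. Fhl2 rose by 2.35, Pdlim7 by 2.03, Tagln2 by 2.00 and Myh9, a non-muscle myosin gene, by 0.84. Lima1, which encodes an actin-binding protein, fell by 1.49. Ankrd1, Myl9, Cald1, Tpm1, Cnn2 and Mkl1 were also lower, and Tagln, Cnn1 and Vil1 were not called. Of adhesion and matrix genes 19 of 32 (59.4%) were higher and 8 (25%) lower. The integrin gene Itgb1 rose by 1.67, Epcam by 2.15 and the syndecan gene Sdc4 by 1.27. The matrix genes Fn1 (fibronectin) and Lama5 (a laminin) fell by 1.80 and 1.56. Of 19 ephrin and EPH genes 7 were lower (36.8%) and 3 higher (15.8%), so that the share lower was near that of all genes tested (33.8%). Epha2 rose by 1.54 ± 0.064 to 844 CPM, and Epha4 fell by 1.76 ± 0.054 to 115 CPM. YAP and TEAD targets were split, with 9 of 19 (47.4%) higher and 10 (52.6%) lower. F3, Cyr61 and Ctgf rose by 1.76, 0.89 and 0.44, and Amotl2, Ajuba and Wwc1 fell by 1.28, 1.07 and 0.96.

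Of 24 measured cholesterol synthesis genes 19 were higher and 1 lower, with a median of 0.65, and with library size alone in 14 and 1. Msmo1 rose by 1.53, Hmgcs1 by 1.39 and Srebf2, which encodes the factor that drives the pathway, by 1.10. Ebp fell by 0.86 and was the only member called lower. Fatty acid synthesis genes were split (7 of 15 higher and 6 lower): Me1 rose by 2.24 and Elovl6 fell by 1.09. Of glycolysis genes 14 of 23 were higher and 4 lower, with Pfkp up by 1.83, Gpi1 by 1.36 and Slc2a1 by 0.59, and Hk1 fell by 1.52. Among chaperone genes 11 of 19 were higher and 1 lower, led by Hmox1, the gene of heme oxygenase, which had 353, 382 and 384 CPM at 2 h and 68.1, 63.5 and 59.9 CPM at 0 h and rose by 2.55 ± 0.067.

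Targets of p53 were lower in 12 of 21 and higher in 7. Ei24 fell by 1.56, Trp53inp1 by 1.20 and Ccng1 by 0.79, whereas Cdkn1a rose by 0.76 and Perp by 1.82. Perp is also a desmosome gene of the epidermal list. The integrated stress response list was split (9 of 25 higher and 7 lower), with Cebpb up by 3.66 and Ddit3 by 1.92, and Cth and Asns, genes of amino acid synthesis, down by 1.69 and 0.90 in log2 terms. The NF-kappaB subunit genes Nfkb2 and Nfkb1 rose by 1.62 and 0.95, and the NF-kappaB target Icam1 fell by 1.77. Of 15 clock-related genes 8 were lower and 3 higher. Arntl, the gene of BMAL1, had 259, 256 and 252 CPM at 2 h and 48.7, 44.4 and 46.6 CPM at 0 h and rose by 2.46 ± 0.063, Per1 rose by 0.99, and Clock and Nr1d2 fell by 0.55 and 1.06.

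DNA methylation genes changed in both directions. Tet1 (chr10:62804570-62908996), which encodes the main 5-methylcytosine dioxygenase of these cells, had 160, 179 and 169 CPM at 2 h and 769, 755 and 802 CPM at 0 h, the largest loss in CPM among called genes, and fell by 2.20 ± 0.067. Tet2 fell by 0.77 and Tet3 rose by 1.39. Dnmt3a, a de novo methyltransferase gene, had 304, 300 and 322 CPM at 2 h and 68.0, 63.1 and 59.6 CPM at 0 h and rose by 2.28 ± 0.072, while Dnmt3b fell by 0.98 ± 0.090. Of Polycomb and Trithorax genes 13 of 23 were higher and 3 lower, led by Kdm6b, an H3K27 demethylase gene (2.25 ± 0.070). Of cyclin and CDK genes of G1, Ccnd2 rose by 2.43 to 11.7 CPM, and Ccnd1 and Ccnd3 fell by 1.65 and 0.87. Myc rose and Mycn fell: Mycn had 69.4, 84.3 and 68.5 CPM at 2 h and 207, 265 and 183 CPM at 0 h, a fall of 1.56 ± 0.098, and Mycl fell by 1.76. The antagonist gene Mnt rose by 1.30.

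Genes of the general machinery made small and mostly upward changes whose number rests on the scaling. Splicing factor genes were higher in 25 of 25 (median 0.39), ribosome biogenesis genes in 28 of 35 (0.30), large-subunit ribosomal protein genes in 17 of 25 (0.23), pause release and elongation genes in 17 of 23 (0.31), G2 and mitosis genes in 17 of 22 (0.36) and DNA replication genes in 11 of 23 (0.12). With library size alone, where 16.9% of all genes tested were higher and the median of all genes was -0.18, the counts were 8, 7, 1, 6, 7 and 3, and the median of the DNA replication list was -0.04. The same scaling gave 6 higher and 3 lower chaperone genes, 7 and 3 Polycomb and Trithorax genes, 3 and 21 naive pluripotency genes, 3 and 6 fatty acid synthesis genes, 4 and 12 p53 targets and 5 and 7 genes of the integrated stress response. Srsf9 rose by 1.02 ± 0.078, Clk4 by 0.93, Aff4, a scaffold of the super elongation complex, by 1.02 ± 0.050, Cdk9 by 0.70, the ribosome biogenesis gene Heatr1 by 0.63, the mitotic kinase gene Plk1 by 0.70 and Pcna by 0.64. Mllt3, another super elongation complex gene, fell by 1.52. Mediator genes other than Med24 were led by Med22 (1.14) and Med14 (0.87), and 16 of 32 were higher and 7 lower, Med24 included, against 8 and 7 with library size alone. Nuclear genes of the respiratory chain were called higher in 5 and lower in 5 of 24, in 7 and 3 with RLE scaling and in 0 and 5 with library size alone.

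**Figure D4:**
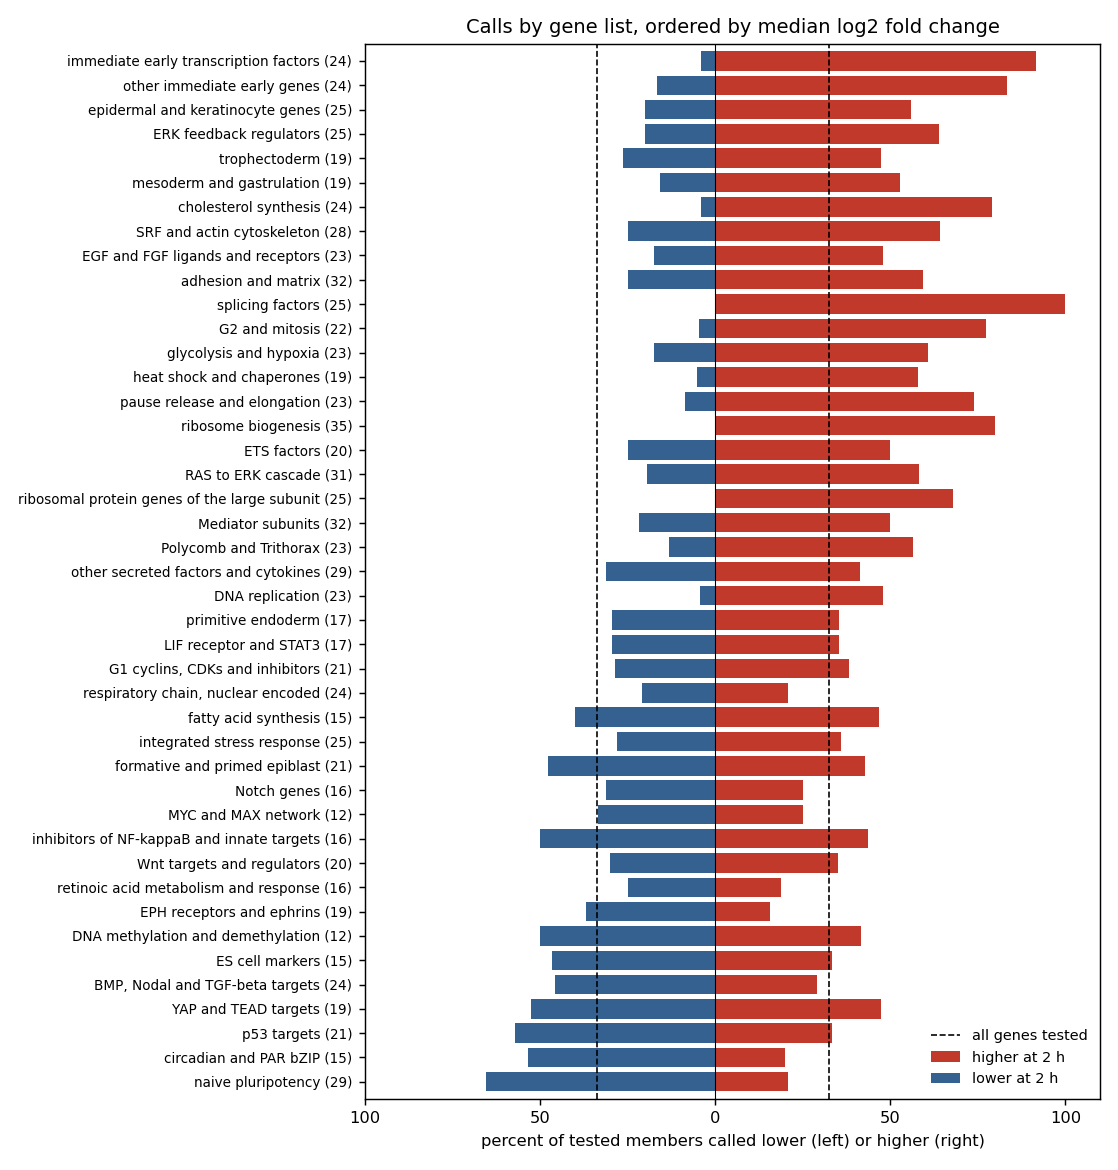
Percent of the tested members of each gene list that were called lower (blue, left) or higher (red, right) at 2 h than at 0 h, for lists with 10 or more tested members (number in brackets), ordered by median log2 fold change. Dashed lines mark all genes tested (33.8% lower and 32.4% higher); immediate early transcription factors stand at the top and naive pluripotency genes at the bottom, and with library size alone the share called higher was 16.9% over all genes and in many of the lists smaller than the share drawn.

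The largest falls among genes of 5 CPM or more were in genes of varied roles. Slc5a11, an inositol transporter gene, had 0.754, 0.876 and 0.777 CPM at 2 h and 18.9, 15.9 and 17.7 CPM at 0 h and fell by 4.42 ± 0.22. Plpp3 (chr4:105157347-105232764), a lipid phosphatase gene, had 13.6, 11 and 11 CPM at 2 h and 158, 152 and 158 CPM at 0 h and fell by 3.72 ± 0.077. St8sia1, the gene of the GD3 ganglioside synthase, had 21.2, 28.7 and 24.9 CPM at 2 h and 224, 243 and 216 CPM at 0 h and fell by 3.19 ± 0.077. The others were Lefty1, Prmt8 (-3.85), Fgf10, Pgpep1l (-3.70), Foxi3 (-3.67), Trim67 (-3.57), Mcf2 (-3.50), Rab3il1 (-3.44), Pknox2 (-3.43), Sh2d4a (-3.27), the connexin gene Gjb5 (-3.22) and the sterol exporter gene Abcg1 (-3.15). By loss of CPM among called genes, Tet1 and Esrrb were followed by Nlrp12, Fbxo15, Fgf4, Dlc1, Epha4, Macf1, Hs6st1 and Lama5, of which Nlrp12 averaged 167 CPM at 2 h and 543 CPM at 0 h.

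The shares called higher and lower differed with gene length. Of protein-coding genes under 5 kb 27.3% were higher and 21.9% lower, of those between 10 and 20 kb 37.3% and 30.3%, of those between 50 and 100 kb 30.7% and 41.3%, and of those over 200 kb 19.9% and 47.3%. The median log2 fold change was 0.10 between 5 and 10 kb and -0.24 over 200 kb. Genes higher by 4-fold or more had a median length of 18.9 kb and those lower by 4-fold or more 28.9 kb, against 26.7 kb for all protein-coding genes tested. Both sets had a median of 7 exons in the transcript with most exons, against 10. Whether introns were counted is not given in the sources used here, and the part of length in how many reads a gene yields was not tested.

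**Figure D5:**
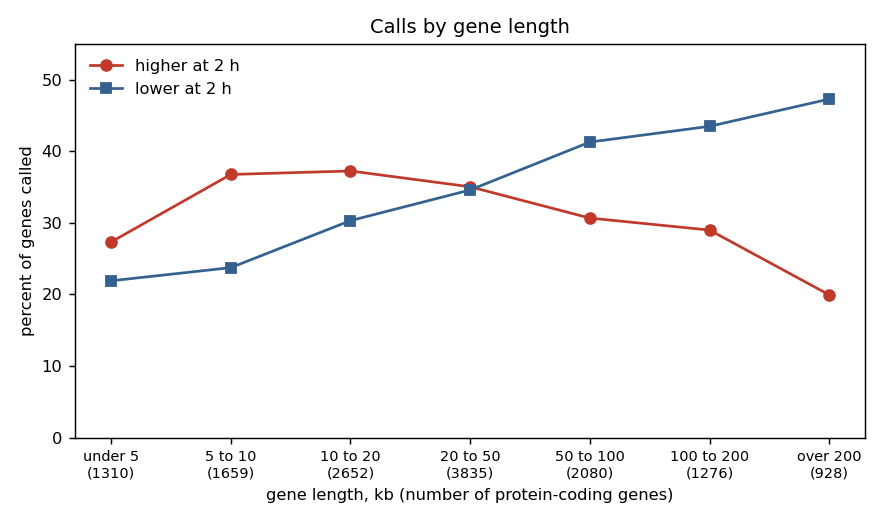
Percent of protein-coding genes called higher (red circles) or lower (blue squares) at 2 h than at 0 h, by gene length in kb, with the number of genes under each bin. The share called lower climbs with length to 47.3% over 200 kb, where 19.9% were higher.

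Some large changes lay next to each other in the order of the genes tested. Taking protein-coding genes tested in order along each chromosome, 89 runs of 3 to 6 neighbours changed by 2-fold or more in the same direction, 41 higher and 48 lower. Genes that were not tested were passed over. With 1168 genes higher and 1638 lower by 2-fold or more some runs would arise without any link between neighbours, and their number was not estimated. Members near 0 counts at 0 h, among them Lor, Sprr1a, Krtdap and Rac2, could not pass the count filter through the 0 h libraries alone. The following were chosen after their values were seen. On chromosome 3 S100a16, S100a3, S100a6 and Lor rose by 2.26, 5.89, 4.25 and 7.60 on the log2 scale in a run with Sprr1a that spanned 1949 kb. On chromosome 7 Sbsn, Dmkn and Krtdap rose by 4.41, 3.91 and 6.45. Both loci hold genes of skin barrier proteins. On chromosome 11 Kif19a, Btbd17, Gpr142 and Gprc5c rose by 4.33, 6.15, 6.82 and 1.86, and on chromosome 15 Sstr3, Cyth4 and Elfn2 rose by 3.59, 5.74 and 3.71 beside Rac2, which had 84 counts over the 2 h libraries and 3 over the 0 h libraries, a ratio of 26.4 (95% counting interval 8.72 to 130). On chromosome 5 the antiviral genes Oas2, Oas1c, Oas1f, Oas1g and Oas1a fell by 2.84, 2.06, 2.29, 3.43 and 2.95, at means of 3.25 CPM or less at 0 h. The Oas1 genes are close copies whose reads may have been split. Their neighbour Oas3 was lower by 1.00, a call lost without clone C at 2 h (-0.74) or at 0 h (-0.61).

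The levels at 2 h were set against those of rescued cells kept 6 h longer in 4OHT. Against rescued cells at 8 h, 4271 genes were higher at 2 h (30.2%) and 4342 lower (30.7%). The 2 h libraries serve in both comparisons, so the 8 h values are given beside the others and not as separate evidence. Of the EGR genes Egr1 averaged 3525 CPM at 2 h and 1575 CPM at 8 h, Egr2 27.1 and 3.17 CPM, and Egr3 194 and 37.3 CPM. Fos averaged 153 CPM at 2 h and 20.4 CPM at 8 h (2 h minus 8 h 2.92, adjusted p = 1.70e-22), Nab1 298 and 50.4 CPM, Sox8 41.1 and 0.926 CPM and Dusp14 95.1 and 10.5 CPM. Dnmt3a was at 309 CPM at 2 h and at 56.3 CPM at 8 h, and Lor at 44.2 and 3.74 CPM. For other genes the difference between 2 h and 8 h was not called: Plaur (769 and 700 CPM, adjusted p = 0.067), Pla2g7 (298 and 318 CPM, adjusted p = 0.089), Fosl1 (93.0 and 99.7 CPM, adjusted p = 0.183) and Fgf4 (43.3 and 41.3 CPM, adjusted p = 0.484). Still other genes had moved further by 8 h. Spry2 averaged 187 CPM at 2 h and 359 CPM at 8 h, Dusp6 152 and 335 CPM, Dusp4 172 and 294 CPM, Myc 40.4 and 92.2 CPM, and Nanog 78.0 and 19.8 CPM, and each of these differences was called. Some genes that fell at 2 h were called higher at 8 h than at 2 h, among them Tet1 (169 CPM at 2 h and 505 CPM at 8 h), Plpp3 (11.9 and 121 CPM) and Mras (8.66 and 47.2 CPM).

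The change from 0 h to 2 h was also set against that of knockout cells without doxycycline, so that the effects of Med24 and of doxycycline cannot be told apart. In knockout cells 4446 genes were called higher at 2 h than at 0 h (31.5%) and 4968 lower (35.2%). By the interaction term of the edgeR fit, the change in rescued minus that in knockout cells was above 0 for 933 genes (6.6%) and below 0 for 933 (6.6%).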

How the data were processed

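Newly made RNA from 6 libraries of rescued cells (2 h and 0 h of 4OHT, clones A to C) was analysed in a fit of all 18 libraries. The authors deposited raw read counts per gene. STAR, featureCounts, DESeq and the mm10 build are named in the submitters' processing notes; versions, the gene annotation, strand and the use of introns were not given in the sources used here. The table had 0 rows without a gene name.

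Genes passing edgeR's filterByExpr (14128 of 25897) were scaled by TMM and tested with edgeR 4.0.16 (R 4.3.3) by the quasi-likelihood test with 6 group means, with Benjamini-Hochberg adjustment over all genes tested and a threshold of 0.05. The SE was taken from the F statistic. CPM use the TMM library sizes, and sums and means of CPM are over the 3 clones of a group. Depth was 6725228 to 9113726 counts in the 6 libraries; intervals, floors and bounds cover counting error only. The step was tried on simulated data in which few genes changed, so the scaling was not tested for changes as widespread as those here. DESeq2 1.42.0, other scalings, filters and sample sets, a clone block and leaving out each library were tried as alternatives.

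The labels call the replicates clones and do not say that they were cultured or sequenced separately, so p-values measure the spread between these libraries. Deviations from the group means at 2 h and 0 h correlated at -0.02 for clone A, 0.01 for clone B and 0.01 for clone C, so the letters were not used for pairing.

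The gene lists and the genes named were chosen with earlier results of these data known. Genes were named as follows: Med24; among called genes with a mean of at least 5 CPM and no overlap, predicted gene models passed over, the 15 highest and 15 lowest log2 fold changes and the 10 largest rises and falls in CPM; members of the immediate early, feedback, ETS and naive lists; and up to 6 members with the smallest p of each other list; some of these genes are not reported here. The following were chosen after their values were seen: Areg, Ereg, Egfr, Mapk3, Lefty2, Ebp, Tgm1, Sprr1a, Axin2, Gata3, Gata4, Gata6, Cdx2, Eomes, Egf, Tgfa, Pla2g7, the genes overlapping a named one, and the neighbour runs. Gene positions are those of GENCODE M21 (GRCm38), and promoter sequences are from RefSeq (GRCm38.p6).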

Additional observations from a re-analysis of the deposited data

Results flagged for a closer look

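The change from 0 h to 2 h was compared between rescued and knockout cells by the interaction term of the edgeR fit. It was above 0 for 933 genes (6.6% of those tested) and below 0 for 933 (6.6%), and with library size alone for 532 and 57. Doxycycline was given to the rescued and not to the knockout cells, so its effect and that of Med24 cannot be told apart. In knockout cells 13 very abundant genes took 34.2% of the counts of clone A at 2 h. Their share was 18% and 22.2% in clones B and C and 19.1% to 19.8% in the rescued 2 h libraries. The part of this in the difference of each gene below was not tested. Of the genes named in the text, part of which were chosen for a large change in rescued cells, those with a called difference of at least 1 on the log2 scale in either direction follow.

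Of these 9 were below 0. Jun had -1.47 ± 0.13 (SE, adjusted p = 6.99e-10, edgeR quasi-likelihood test), with a change of 2.12 in rescued and 3.59 in knockout cells, and Egr1 had -1.01, with 6.31 in rescued and 7.31 in knockout cells. Klf4 had -1.40, with -1.09 in rescued and 0.31 in knockout cells, and Nodal -1.29, with -0.67 in rescued and 0.62 in knockout cells. The others were Lefty2 at -1.37, Jak1 at -1.31, Prdm14 at -1.11, Slc5a11 at -1.10 and Otx2 at -1.06. Of these Slc5a11 was near the threshold (adjusted p = 0.047, edgeR quasi-likelihood test), with 20 counts over the rescued 2 h libraries.

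The other 36 were above 0. Among immediate early transcription factor genes the change in rescued minus that in knockout cells was 2.27 for Fosl2 (5.65 in rescued and 3.39 in knockout cells), 1.72 for Bhlhe40, 1.31 for Fosl1, 1.25 for Junb and 1.60 for Atf3. Atf3 averaged 4.55 CPM at 2 h and 1.29 CPM at 0 h in rescued cells, and 8.07 CPM at 2 h and 7.17 CPM at 0 h in knockout cells. For ERK feedback genes it was 2.33 for Phlda1, 1.59 for Dusp5, 1.38 for Dusp14 and 1.09 for Dusp4, and for Trib1 1.43. Secreted factor genes gave 1.63 for Hbegf and 1.58 for Wnt7b. Ereg had 5.90, a fitted value that is no bound, since it had no counts in the rescued 0 h libraries.

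Tead4 differed by 2.38 ± 0.097, with a change of 2.47 in rescued and 0.08 in knockout cells. Epithelial genes gave 2.11 for Krt8, 1.99 for Krt18, 1.74 for Pkp3, 1.41 for Sfn, 1.38 for S100a6, 1.29 for Perp and 1.10 for Dsp, and genes of the cytoskeleton 1.86 for Fhl2, 1.76 for Plec and 1.35 for Vim. Further differences were 1.49 for Pim1, 1.46 for Ccnd2, 1.33 for Med24, 1.26 for F3, 1.25 for Plaur, 1.25 for Tet3 and 1.04 for Id1. Of the neighbours on chromosome 11, Gpr142 had 2.39 and Gprc5c 1.73. The differences of Gsg1 (2.42, adjusted p = 0.036) and Msx1 (1.71, adjusted p = 0.041, edgeR quasi-likelihood test) were above 0 and near the threshold. Gadd45g, which fell in both, had 1.58, with a fall of 0.75 in rescued and 2.32 in knockout cells on the log2 scale.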

How the results depend on the processing

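Calls higher numbered 4574 with TMM, 2384 with library size alone, 4705 with RLE size factors and 4423 with DESeq2. Calls lower numbered 4780, 5101, 4648 and 4286 in the same settings. Without a filter they were 4742 higher and 4840 lower, and with the clone letter as a replicate block 4577 and 4761. Pairing by clone letter changed no call of the genes named. Leaving out 1 of the 6 libraries gave 4316 to 4455 higher and 4485 to 4562 lower, 439 to 463 higher and 353 to 388 lower by 4-fold or more, and against 8 h 4008 to 4359 higher and 3964 to 4339 lower. The interaction then had 748 to 937 genes above and 670 to 995 below 0. With library size alone 2532 genes were higher at 2 h than at 8 h, and the interaction had 532 above and 57 below 0.

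Of the genes named, 10 changed sign, none of them called in any of these settings. With library size alone the log2 fold change was -0.15 for Axin2, -0.028 for Dusp10, -0.15 for Elk3, -0.097 for Gata3, -0.037 for Gata4, -0.15 for Nfil3, -0.035 for Tgfa and -0.067 for Zfp42. Over the 6 left-out libraries it spanned -0.030 to 0.079 for Axin2, -0.19 to 0.091 for Dusp8, -0.053 to 0.092 for Elk3, -0.017 to 0.17 for Gata3, -0.094 to 0.17 for Nfil3 and -0.077 to 0.0073 for Spred2. The causes were not tested. Genes near a few counts per library, such as Areg, are limited by depth.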
